A study of Mus musculus with 4 samples.

Results

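The MHC class II high Ccr2 monocytes described here were 1255 of the 51841 cells that passed the limits on genes and mitochondrial content in 4 single-cell RNA libraries of CD45+ cells from mouse tumours. They were chosen cell by cell from their own counts of unique molecular identifiers (UMIs, each standing for 1 captured transcript). The limits included at least 1 UMI of Ly6i, Ccr2 and Csf1r in the cell. In addition, H2-Aa, H2-Ab1 and H2-Eb1 together held at least 20 of every 10000 of its UMIs, and C1qa, C1qb and C1qc together under 10 per 10000. At most 1 of Chil3, Vcan, Ace and Adgre4 and at most 1 of Mmp12, Mmp13, Gpnmb and Pgf (together the exclusion genes) could be detected, and Cd3e, Cxcr2 and Flt3 had to be at 0. The levels of these genes chose the cells, so they are given only as a description.

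The tumours were subcutaneous grafts of a KPC line, a mouse pancreatic carcinoma line, in syngeneic male C57BL/6 mice of 8 to 10 weeks. Mice were untreated, received the STING agonist ADU-S100 as 1 intratumoral injection of 2 µg, received an agonistic antibody against the lymphotoxin-β receptor (LTβR agonist) as 4 intraperitoneal injections of 100 µg up to day 10, or received both (combination), and tumours were resected on day 14. For each group 10 tumours were pooled before sorting, so each group was 1 library of several animals. The study describes a further single-cell experiment, which was not analysed here, and the libraries used here have no replicates, so the groups could not be tested against each other. The intervals below are 95% intervals for counting error only, and sets of 4 values are in the order untreated, STING agonist, LTβR agonist and combination.

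Classical monocytes leave the bone marrow through the chemokine receptor CCR2 and enter inflamed tissue and tumours, where they can lose Ly6C, gain MHC class II and take on features of macrophages or dendritic cells. STING is a sensor of cyclic dinucleotides in the cytosol that switches on type I interferon and NF-κB, and LTβR is a receptor on stromal and myeloid cells that signals through both NF-κB pathways. Interferon-γ, released mainly by T and NK cells, switches on the class II transactivator CIITA and chemokines such as CXCL9, which attracts T cells through CXCR3.

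The deposited libraries held 8730 to 16322 cells. The gate took 115, 194, 489 and 457 cells with 751350, 1478739, 2533506 and 1654135 UMIs in all and a median of 6441, 7681, 4698 and 3373 UMIs per cell, so the combination cells were the shallowest and the untreated sum the smallest. No barcode in the gate was shared between libraries. Removal of the highest doublet scores would have taken 2, 14, 19 and 24 of the gated cells.

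The class II high Ccr2 monocytes made up a larger share of cells in both libraries that received the LTβR agonist. Their share was 1.48% (1.22 to 1.77%) untreated, 1.35% (1.17 to 1.56%) with the STING agonist, 3.48% (3.19 to 3.80%) with the LTβR agonist and 2.91% (2.65 to 3.19%) with the combination. The LTβR agonist share was 2.35 times the untreated share (1.93 to 2.88) and the combination share 1.97 times (1.61 to 2.41), whereas the ratio of the STING agonist share to the untreated share was 0.916 (0.728 to 1.15). The STING agonist ratio depended on the limits, at 0.658 (0.456 to 0.948) with none of the exclusion genes detected. Among cells without a Cxcr2 UMI it was 1.16 (0.921 to 1.45). The combination stood at 2.15 times the STING agonist library (1.82 to 2.54).

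Neutrophils and lymphocytes also differ in number between tumours and enter this denominator, so the share was taken among Csf1r-positive cells as well. There it was 2.99, 3.09, 6.72 and 6.12%, with the same split into 2 lower and 2 higher libraries. Between the combination and the LTβR agonist alone the order depended on which cells were counted. The ratio was 0.836 (0.737 to 0.948) over all cells and 0.911 (0.806 to 1.03) over Csf1r-positive cells. Among cells with at least 2000 UMIs, which were 10458 of 14041 with the LTβR agonist and 8570 of 15698 with the combination, it was 1.05 (0.92 to 1.20). When those cells were also thinned to 2000 UMIs before the gate was applied, the shares were 1.17, 1.12, 2.67 and 3.14% and the ratio 1.18 (0.998 to 1.39), so both of these intervals included 1.

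**Figure D1:**
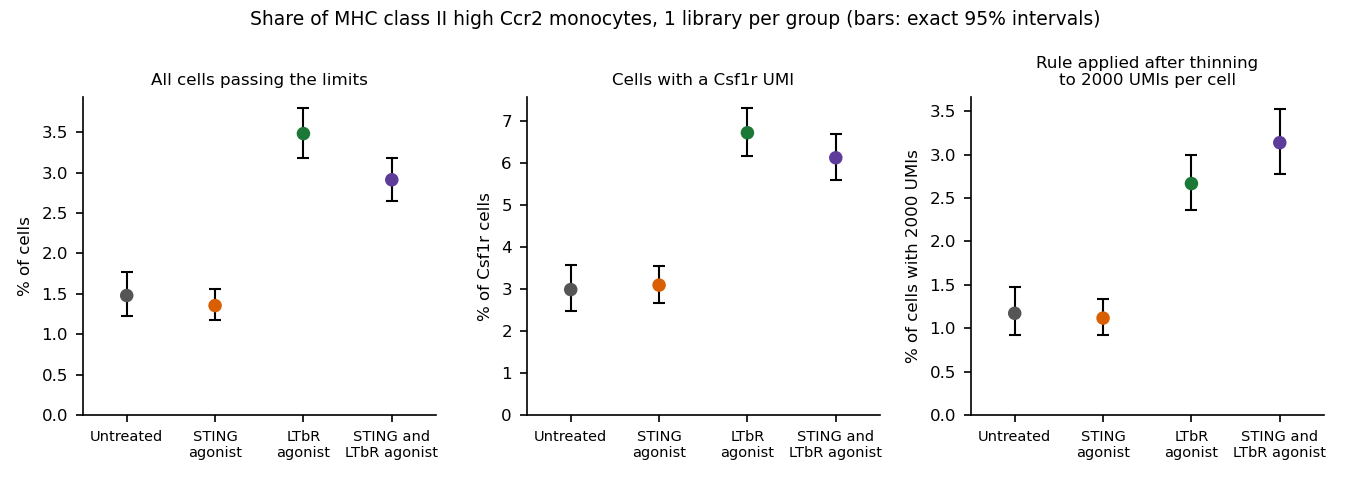
Share of class II high Ccr2 monocytes in each library, in percent of all cells passing the limits, of cells with a Csf1r UMI, and of cells with at least 2000 UMIs when the gate was applied after thinning to 2000 UMIs; points are single libraries and bars are exact 95% binomial intervals for counting error. Among all cells the untreated and STING agonist libraries sit at 1.48 and 1.35% and the LTβR agonist and combination libraries at 3.48 and 2.91%.

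Of 4 neighbouring myeloid gates cut from the same libraries, the nearest was largest with the LTβR agonist, with the combination close to untreated. Cells that met every limit but had class II under the minimum made up 0.193, 0.112, 0.627 and 0.204% of cells, 3.25 times the untreated share with the LTβR agonist (1.88 to 5.61) and 1.06 times with the combination (0.573 to 1.95). In none of the other 3 gates did both libraries that received the LTβR agonist stand above the untreated and STING agonist libraries. Monocytes with both a Chil3 and a Vcan UMI, which mark newly arrived classical monocytes, made up 1.95, 1.76, 2.48 and 1.60% of cells. Macrophages with at least 50 C1q UMIs per 10000 made up 10.9, 5.61, 6.97 and 7.95%, and class II high cells with a Flt3 UMI, a receptor of dendritic cells, made up 1.16, 0.621, 1.26 and 0.943%. In the untreated library the Ly6i step left 668 cells, the class II step 604 and the C1q step 210, and the corresponding numbers were 1095, 946 and 389 with the STING agonist, 2003, 1689 and 883 with the LTβR agonist, and 1624, 1495 and 717 with the combination. In each library the limit on C1q removed more of the Ly6i-positive cells than the class II minimum did.

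The class II limit cut a continuous range. The median class II sum was 208, 210, 215 and 223 per 10000 UMIs, and 60, 105, 263 and 259 cells stood at 200 or more. Just inside the limit, between 20 and 30 per 10000, stood 4, 4, 10 and 13 cells, and just outside it, between 10 and 20, stood 4, 3, 19 and 7. From 20 to 30 per 10000 up to 200 or more, Cd74 went from 4700 to 20409 UMIs per 1000000 (CPM, from UMIs summed over cells) in the untreated library and from 5792 to 21404 CPM with the combination. Over the same bins the monocyte gene Plac8 went the other way, from 9170 to 1864 CPM untreated and from 4272 to 1530 CPM with the combination. The lower bins held few cells.

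Of the 5 marker genes, 3 belong to the rule. Ly6i, a Ly6 family surface protein, stood at 748, 738, 926 and 1162 CPM in the gate. Ccr2 stood at 1183, 860, 1184 and 1138 CPM and H2-Aa, the class II alpha chain, at 7786, 8295, 7527 and 8059 CPM. Cxcl9 and Pltp took no part in the choice of cells.

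Cxcl9 was expressed in a minority of the cells at 936, 935, 757 and 910 CPM, close to each other in all 4 libraries. After thinning to 2000 UMIs, 30.4% (22.2 to 39.7%), 36.4% (29.5 to 43.7%), 33.5% (29.2 to 38.0%) and 37.7% (32.9 to 42.6%) of the gated cells held a Cxcl9 UMI, against 1.77, 1.39, 1.44 and 2.37% of cells with a Cd3e and no Csf1r UMI, which served as the background from free RNA. Without thinning the shares in the gate were 38.3, 44.3, 42.3 and 41.8%, at the depths given above, and the Cd3e-positive cells had medians of 4014, 4240, 3342.5 and 2086 UMIs. Within the gate the tenth of cells with the most Cxcl9 held 71.7, 71.4, 70.4 and 68.2% of its thinned UMIs, against 18.2, 18.4, 17.8 and 17.6% for Cd74.

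Pltp, the phospholipid transfer protein, stood at 214, 126, 282 and 313 CPM. It was lowest with the STING agonist, by 0.77 on the log2 scale from untreated (-1.08 to -0.46), and the combination was 1.31 above the STING agonist (1.07 to 1.56). Neither gene was particular to the gate by level. Cxcl9 was higher in the C1q high macrophages of all 4 libraries, at 1346, 1178, 931 and 1099 CPM, and lower in the Chil3 Vcan monocytes, at 390, 464, 320 and 268 CPM. Pltp was at 280, 283, 505 and 303 CPM in the C1q high macrophages, above the gate in 3 libraries, and at 71.7, 51.3, 86.9 and 95.2 CPM in the Chil3 Vcan monocytes.

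**Figure D2:**
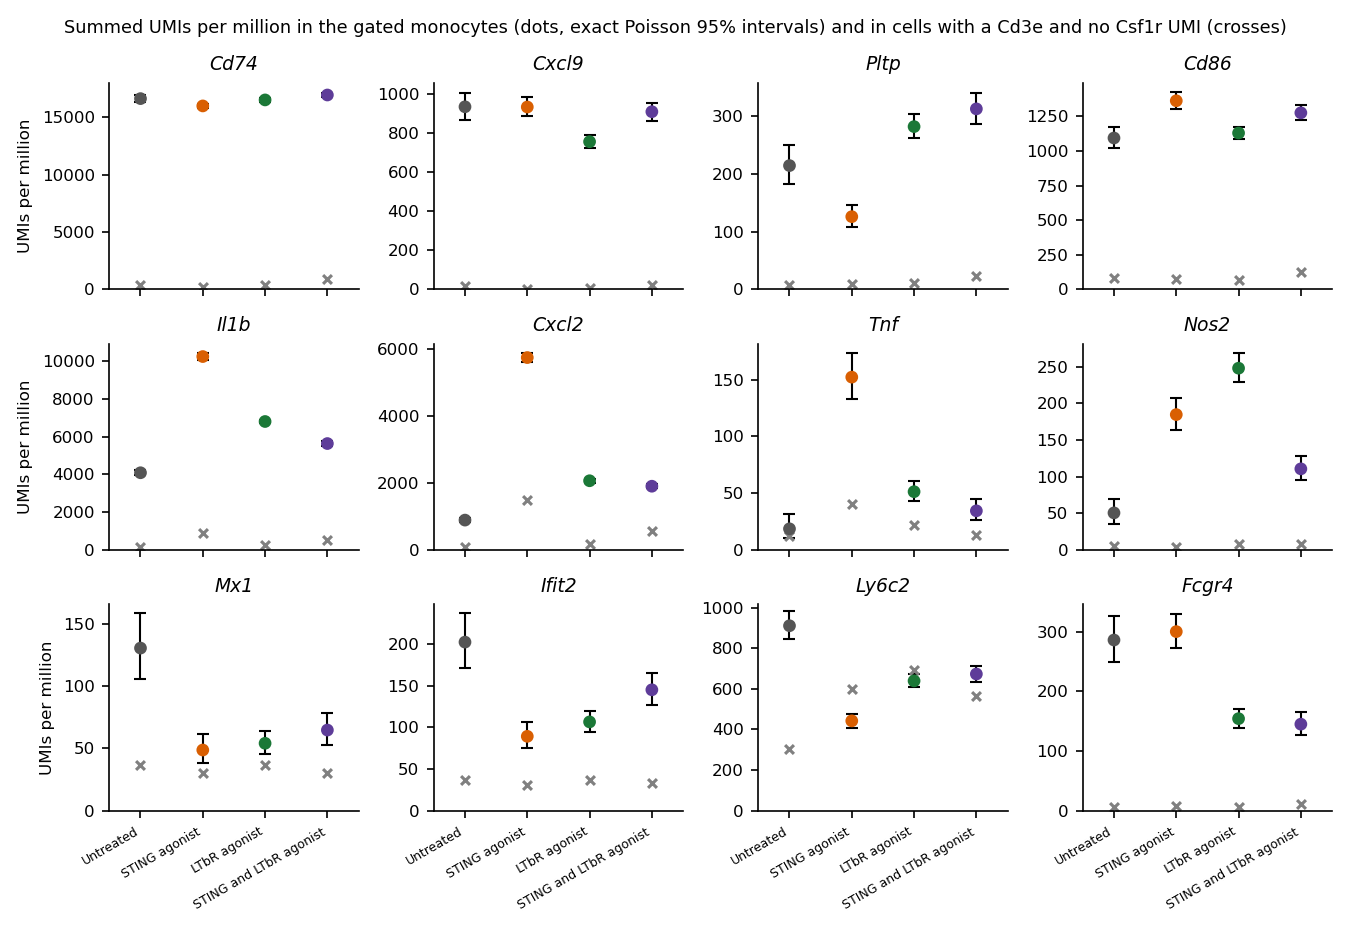
Level of chosen genes in the class II high Ccr2 monocytes of each library, in CPM on linear axes that start at 0, with exact 95% Poisson intervals for counting error; crosses give the level in cells with a Cd3e and no Csf1r UMI of the same library. Cxcl2 reads 890, 5732, 2062 and 1899 CPM in the gate and 1496 CPM in the Cd3e-positive cells of the STING agonist library.

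The class II high Ccr2 monocytes were set beside the other gates gene by gene. Against the Chil3 Vcan monocytes, 75 of 7347 genes (1.02%) were at least 2-fold higher in every library and 50 (0.681%) at least 2-fold lower. The higher ones included Anpep, an aminopeptidase of myeloid cells, at 101, 108, 141 and 136 CPM against 11.2, 8.77, 25.6 and 21.6 CPM. The class II chaperones H2-Oa and H2-DMb2, in cells that the rule chose for high class II, and the lectin Mgl2 were among the 10 genes with the largest smallest difference, as were Klrd1, Rtn1 and Gpr171. The lower ones included the phospholipase Plcb1, at 125, 147, 128 and 174 CPM against 860, 659, 776 and 964 CPM, and Hp, Mmp8, Lrg1 and Ifitm6, which are genes of young monocytes and granulocytes.

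Against the C1q high macrophages, 120 of 10170 genes (1.18%) were at least 2-fold higher in every library and 413 (4.06%) at least 2-fold lower. Plac8 led the higher genes at 2589, 2480, 1789 and 2222 CPM against 237, 224, 121 and 186 CPM. Ly6c2, the Ly6C antigen of classical monocytes, stood at 910, 442, 639 and 673 CPM against 121, 56.0, 46.7 and 58.9 CPM. Among the lower genes were Gas6, Vcam1, Pf4 and the chemokine Ccl8, which are expressed by tissue macrophages, with Ccl8 at 10.6, 3.38, 18.2 and 10.3 CPM against 587, 530, 1288 and 483 CPM.

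Against the Flt3-positive class II high cells, 139 of 7129 genes (1.95%) were at least 2-fold higher in every library and 169 (2.37%) at least 2-fold lower. Nos2, Acod1, Cfb, Ccl5, Il1a and Gbp6, inflammatory genes of activated monocytes and macrophages, were among the 10 leading higher genes. Cfb, complement factor B, read 395, 357, 347 and 382 CPM against 11.4, 31.7, 27.5 and 66.5 CPM. Adam23, Btla, Cd7 and Plet1 were among the 10 leading lower genes, with Adam23 at 7.99, 48.0, 3.55 and 7.25 CPM against 1509, 1207, 1321 and 1177 CPM. The gates were cut from the same cells, so these are descriptions and not tests.

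By the fixed identity lists the gate held fewer macrophage transcripts than the C1q high macrophages and fewer monocyte transcripts than the Chil3 Vcan monocytes. The 14 macrophage genes summed to 3251, 3368, 2894 and 2550 CPM in the gate, to 3779, 3355, 3434 and 3241 CPM in the Chil3 Vcan monocytes and to 13637, 14008, 15755 and 12864 CPM in the C1q high macrophages. The 14 classical monocyte genes summed to 11056, 10988, 9777 and 9924 CPM, below the 15480, 15573, 14980 and 14064 CPM of the Chil3 Vcan monocytes and above the 3677, 3743, 3711 and 3191 CPM of the C1q high macrophages. In the Flt3-positive cells they summed to 7496, 8232, 7489 and 6224 CPM, also below the gate. The 18 genes of conventional dendritic cells summed to 743, 582, 1093 and 892 CPM, against 241, 273, 331 and 366 CPM in the Chil3 Vcan monocytes, 765, 695, 1230 and 1307 CPM in the C1q high macrophages and 2941, 1767, 3272 and 2500 CPM in the Flt3-positive cells. Zbtb46, a transcription factor that defines conventional dendritic cells, had a UMI in 0.870, 0, 1.08 and 0.754% of the thinned gated cells, below the share in Cd3e-positive cells in each library (1.66, 2.55, 1.78 and 2.17%), and a count of 0 in 187 cells, with a limit of 3 cells, allows a share of cells with a UMI of up to 1.60%. Class II, Ccr2 and Ly6i were set by the rule and do not check the label, and the other 2 marker genes, Cxcl9 and Pltp, were not highest in these cells in every library.

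**Figure D3:**
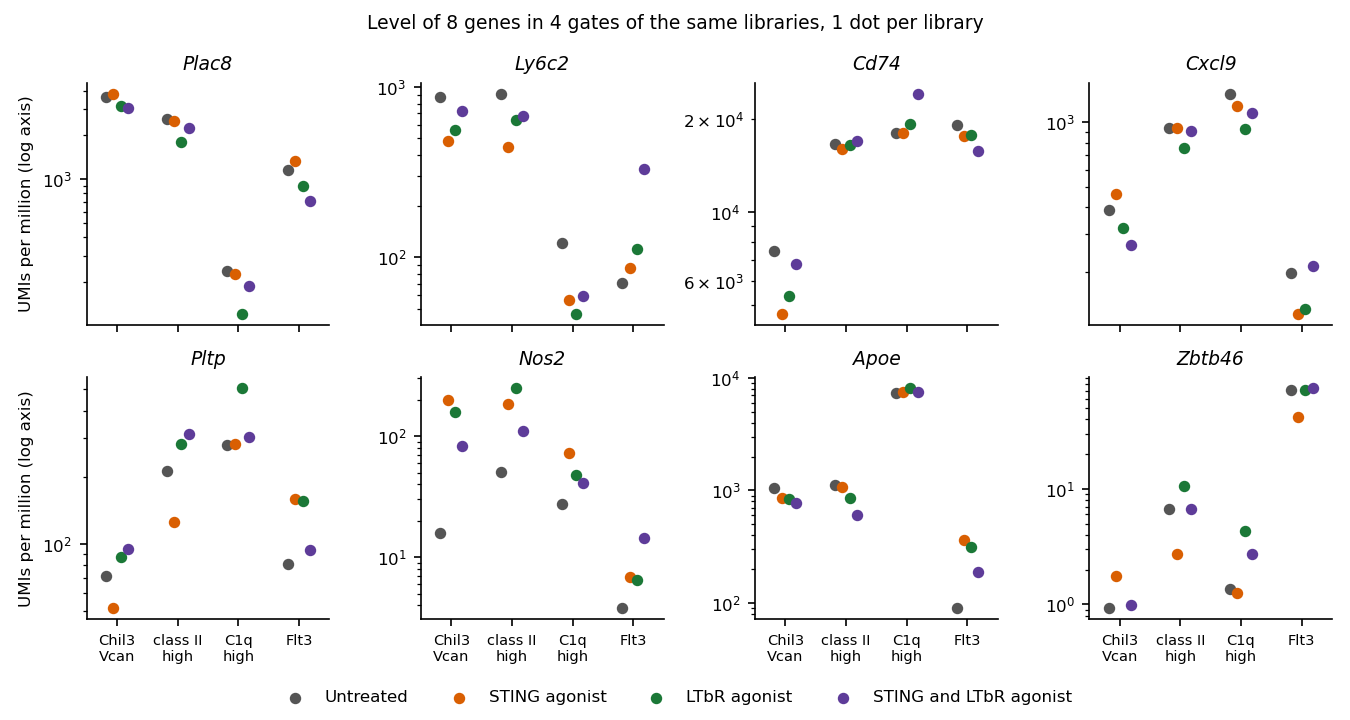
Levels of identity genes in the class II high Ccr2 monocytes and in the 3 other myeloid gates of each library, in CPM on a log axis; each point is 1 library, and levels of 0 (such as Zbtb46 in the LTβR agonist Chil3 Vcan monocytes) are not drawn. Ly6c2 in the gate (442 to 910 CPM) stands above the C1q high macrophages (46.7 to 121 CPM).

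The summed markers of T cells, NK cells, B and plasma cells and neutrophils differed between the gated cells of the 4 libraries, and their part in the results was not tested. The 10 T cell markers summed to 49.2, 191, 112 and 70.7 CPM, against 3869 to 4337 CPM in the Cd3e-positive cells. Most of this was Il7r, the interleukin-7 receptor, at 37.3, 180, 95.5 and 51.99 CPM, with log2 ratios to untreated of 2.25 with the STING agonist and 1.34 with the LTβR agonist. The other 9 T cell markers each stood at 6.05 CPM or less, and Cd3g was at 0 in the untreated and STING agonist libraries. The 6 NK cell markers summed to 120, 154, 106 and 96.1 CPM in the gate and to 1126, 1223, 1166 and 1178 CPM in the Cd3e-positive cells. They summed to 25.1, 12.7, 38.6 and 38.3 CPM in the Chil3 Vcan monocytes, below the gate, and to 278, 304, 196 and 145 CPM in the Flt3-positive cells, above it. The 8 B and plasma cell markers summed to 86.5, 44.0, 4217 and 4149 CPM. Immunoglobulin genes held 0.0198, 0.0133, 1.82 and 0.731% of the gated UMIs. In the LTβR agonist and combination libraries 3 cells held 78.1 and 83.5% of it, and 4 and 2 cells were over 10% immunoglobulin. An immunoglobulin UMI was found in 62.6, 53.6, 86.5 and 96.7% of gated cells, with a median of 1.43, 0.878, 4.84 and 11.2 per 10000 UMIs. The 9 neutrophil markers summed to 1030, 2266, 1291 and 1031 CPM in the gate and to 235, 2059, 509 and 1215 CPM in the Cd3e-positive cells, with Ly6g and Cxcl5 at 0 in the gate. Most of the sum in the gate was Il1r2. After thinning, Il1r2 stood at 657, 1676, 900 and 613 CPM in gated cells with a Cxcl9 UMI. In those without, it stood at 931, 1538, 1037 and 631 CPM. S100a8 had a UMI in 4.35, 7.49, 1.94 and 3.77% of thinned gated cells and in 0.773, 10.9, 1.86 and 3.94% of thinned Cd3e-positive cells, so its level with the STING agonist stood at the background.

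Within the gate, Il1b, Il1rn and Cxcl2 were higher in each library that received an agonist, most of all with the STING agonist. Among 3716 genes with at least 100 UMIs over both libraries and outside the rule, 117 (3.15%) were at least 2-fold higher with the STING agonist than untreated and 31 (0.834%) at least 2-fold lower. With TMM factors in place of library totals the split became 168 and 9, since this scaling adds 0.16 on the log2 scale to each gene of the STING agonist comparison. The LTβR agonist gave 81 higher (1.65% of 4907) and 17 lower (0.346%), and the combination 49 higher (1.22% of 4031) and 12 lower (0.298%). Over all compared genes the median log2 ratio was -0.11, -0.03 and -0.02 for the STING agonist, the LTβR agonist and the combination. The 3 comparisons share the untreated library of 115 cells.

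Of 16 cytokine genes, 8 could be compared for the STING agonist, and 5 of them were at least 2-fold higher, against 3.15% of all genes, and 0 lower, with a median log2 ratio of 1.18. Il1b, which encodes interleukin-1β, stood at 4085, 10230, 6795 and 5629 CPM in the gate. It was higher by 1.32 on the log2 scale (1.27 to 1.38) with the STING agonist, 0.73 (0.68 to 0.79) with the LTβR agonist and 0.46 (0.40 to 0.52) with the combination. Its level in the Cd3e-positive cells, at 136, 915, 266 and 553 CPM, moved along with the treatments, and the part of free RNA in the difference was not tested.

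Tnf, the tumour necrosis factor gene, was near silent in untreated cells and reached 18.6, 152, 51.3 and 34.5 CPM. The log2 ratio was 2.98 (2.25 to 3.92) for the STING agonist and 1.42 (0.66 to 2.37) for the LTβR agonist, and the first was 1.97 with none of the exclusion genes detected. Il1a went from 57.2 CPM untreated to 331, 260 and 91.9 CPM, so both single agonists stood above the combination. Il1rn, the interleukin-1 receptor antagonist that opposes both interleukins, went along at 319, 1169, 709 and 617 CPM. Il6 was highest with the LTβR agonist at 9.32, 14.2, 53.3 and 27.2 CPM, a log2 ratio of 2.42 (1.43 to 3.86) against untreated, which was 4.76 with none of the exclusion genes detected.

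The LTβR agonist had 4 of 10 compared cytokines at least 2-fold higher, against 1.65% of all genes, with a median of 0.83. The combination had 0 of 8, with a median of 0.36, where 1.22% of all genes were at least 2-fold higher. Osm, which encodes oncostatin M, read 550, 1122, 1045 and 975 CPM and was past 2-fold with the STING agonist but not in the other 2 libraries. Tgfb1 read 285, 258, 368 and 333 CPM and Il18 63.9, 54.1, 41.8 and 57.4 CPM. Il12b, the p40 chain of interleukin-12, was detected in at most 0.656% of the gated cells.

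Among the 14 chemokine genes the neutrophil attractants stood furthest above untreated. Cxcl2, a ligand of CXCR2, stood at 890, 5732, 2062 and 1899 CPM. It was higher by 2.69 on the log2 scale (2.57 to 2.80) with the STING agonist, 1.21 with the LTβR agonist and 1.09 with the combination, and the combination was 1.59 below the STING agonist. A Cxcl2 UMI was found in 33.9, 71.1, 44.7 and 44.0% of thinned cells, against 3.43, 21.1, 7.37 and 14.2% of thinned Cd3e-positive cells. The background share was thus also highest with the STING agonist, where the Cd3e-positive cells stood at 1496 CPM. Cxcl3 was at 0, 85.9, 33.6 and 27.2 CPM, at least 21.5-fold higher with the STING agonist than the limit set by 3 UMIs in the untreated cells.

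The monocyte and T cell attractants followed less closely. With the STING agonist 4 of 9 compared chemokines were at least 2-fold higher (Cxcl2, Cxcl3, Ccl3 and Ccl4), with the LTβR agonist 1 of 9 and with the combination 1 of 7, against 3.15, 1.65 and 1.22% of all genes. Ccl4, an attractant of monocytes and T cells, read 370, 766, 389 and 415 CPM, while Ccl3 read 83.8, 319, 88.0 and 122 CPM with 44.4% of its untreated UMIs in 1 cell. Ccl5 was 512, 440, 424 and 368 CPM, and Ccl2, the main CCR2 ligand, 146, 181, 183 and 115 CPM, all within 2-fold. Ccl12, another CCR2 ligand, read 50.6, 68.3, 47.4 and 16.3 CPM. It was lowest with the combination, with log2 ratios of -2.05 to the STING agonist and -1.52 to the LTβR agonist, and had too few UMIs for the comparison of the combination with untreated. The list median was 0.61, 0.06 and 0.14, and that of the combination turned to -0.15 when each cell was thinned.

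Nfkbia and Tnfaip3, feedback inhibitors of NF-κB, stood above untreated in each agonist library, past 2-fold with the STING agonist only. Nfkbia, which encodes IκBα, stood at 457, 1572, 849 and 816 CPM, higher by 1.78, 0.89 and 0.84 on the log2 scale, and Tnfaip3, which encodes A20, at 266, 624, 361 and 369 CPM. Nfkbia was also expressed by the Cd3e-positive cells, at 584, 985, 548 and 593 CPM. Of the genes of the STING and LTβR pathways 10, 13 and 12 could be compared. These 2 were past 2-fold higher with the STING agonist, against 3.15% of all genes, and 0 were with the LTβR agonist and the combination, against 1.65 and 1.22%. Of the receptors themselves, Ltbr was close between libraries, at 41.3, 37.2, 43.8 and 44.1 CPM. Sting1 was lower in each agonist library, within 2-fold, at 142, 105, 102 and 108 CPM. Traf3, an adaptor of LTβR, was higher by 0.44, 0.79 and 0.60, and Nfkb2 by 0.22, 0.26 and 0.56.

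The promoters of Cxcl2 and Nfkbia are shown because these 2 members carry the NF-κB pattern above and their windows hold a κB motif. RefSeq promoters of GRCm38.p6, 250 bases before to 50 after the start, were searched on both strands for GGGA and TTTCC with 1 base between them, which 135 of 32851 promoters (0.411%) held, and for the wider form GGG and TTTCC with 2 bases between, which 1.63% held and which includes the first. The Cxcl2 window (chr5:90903649-90903948, plus strand) held the strict motif from base -97 and the wider from base -78, counted from the start, and the Nfkbia window (chr12:55492598-55492897, minus strand) held the strict motif from base -29. Matches are in capitals, 5′ to 3′.
Cxcl2: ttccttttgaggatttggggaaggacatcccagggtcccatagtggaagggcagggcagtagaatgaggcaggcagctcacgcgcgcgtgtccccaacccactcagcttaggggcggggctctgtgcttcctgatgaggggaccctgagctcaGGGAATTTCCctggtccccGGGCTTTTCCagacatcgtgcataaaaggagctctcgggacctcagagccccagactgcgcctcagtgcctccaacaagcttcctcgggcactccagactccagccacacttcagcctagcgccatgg
Nfkbia: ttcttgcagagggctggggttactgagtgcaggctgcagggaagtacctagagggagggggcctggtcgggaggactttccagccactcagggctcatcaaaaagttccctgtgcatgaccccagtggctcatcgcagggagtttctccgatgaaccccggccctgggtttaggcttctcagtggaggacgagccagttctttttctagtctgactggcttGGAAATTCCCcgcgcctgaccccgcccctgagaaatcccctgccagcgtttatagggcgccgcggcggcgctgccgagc
A match describes letters only. The Cxcl3 window also held the strict motif, from base -73. Tnfaip3 and Il1rn have more than 1 window, and some of these held the wider motif only. The windows of Tnf, Il1b, Il1a, Acod1 and Ptgs2 held neither motif.

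**Figure D4:**
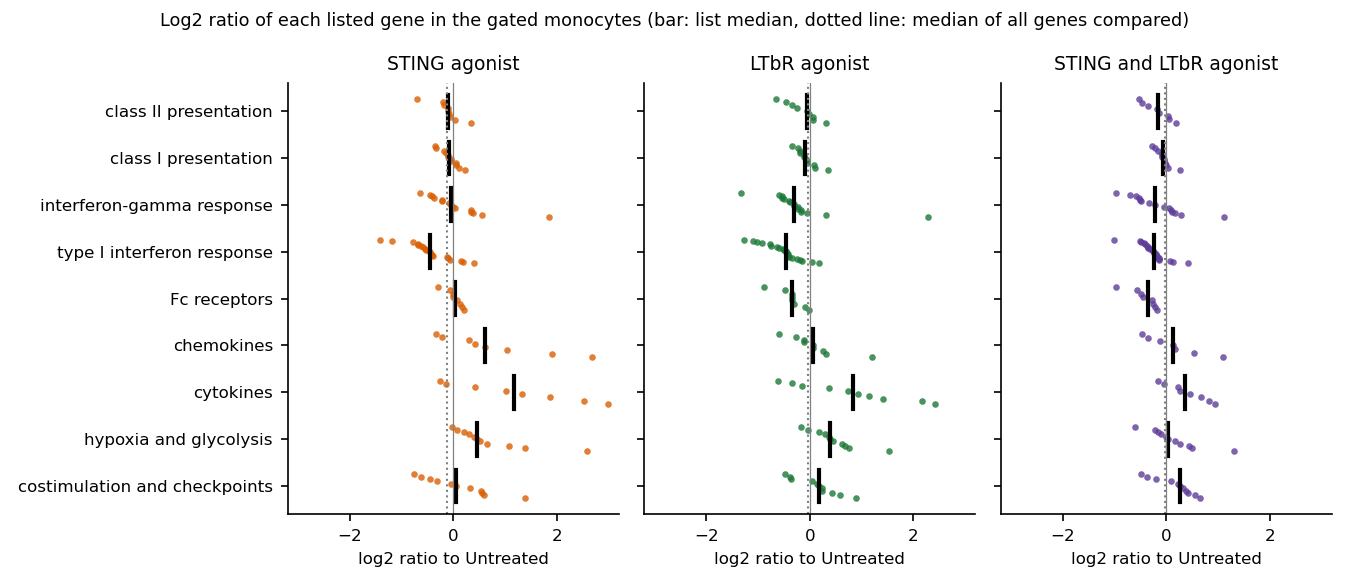
Log2 ratio to untreated of each member of the fixed gene lists with at least 100 UMIs over both libraries, per agonist library; points are genes, black bars are list medians, the solid line marks 0 and the dotted line the median of all genes compared, and Cxcl3, which had 0 UMIs in the untreated library, is left out. Cytokine medians are 1.18, 0.83 and 0.36, and type I interferon medians are -0.45, -0.46 and -0.25 for the STING agonist, the LTβR agonist and the combination.

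Type I interferon response genes were lower, not higher, in all 3 agonist libraries on day 14. Of 26 fixed genes, 20, 22 and 22 could be compared, and 17, 20 and 19 of them were below 0 on the log2 scale, against 61.7, 54.1 and 52.4% of all compared genes. The list medians were -0.45, -0.46 and -0.25, and with TMM factors they were -0.29, -0.39 and -0.19 with 14, 20 and 19 genes below 0. Genes at least 2-fold lower numbered 2, 3 and 1, against 0.834, 0.346 and 0.298% of all genes. Mx1, an antiviral GTPase, stood at 130, 48.7, 54.1 and 64.7 CPM, lower by 1.42 (-1.88 to -0.97), 1.27 (-1.65 to -0.88) and 1.01 (-1.42 to -0.60) on the log2 scale. The 2 genes past 2-fold lower with the STING agonist, Mx1 and Ifit2, each lost that call under an alternative, Mx1 at -0.85 with the gate applied to thinned cells and Ifit2 at -0.82 with each cell thinned and -0.92 with none of the exclusion genes detected. Under the gate applied to thinned cells Mx1 was also within 2-fold with the LTβR agonist, at -0.94, and with the combination, at -0.63. The combination value lay at the threshold and was also within 2-fold with TMM factors, at -0.96.

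Ifit2, which binds viral RNA with its relatives, read 202, 89.3, 107 and 145 CPM. Ifit1 read 58.6, 22.3, 27.6 and 41.1 CPM and Ifit3 66.5, 28.4, 33.2 and 60.5 CPM, so the combination lay between the untreated library and the single agonists for each of the 3. Irf7, the amplifier of the interferon response, followed the same order at 331, 247, 194 and 288 CPM, but Isg15 did not, at 643, 710, 476 and 580 CPM. Set directly against the STING agonist library, 18 of 22 list genes were higher with the combination (17 with TMM factors), against 60.5% of all 4622 compared genes, with a median of 0.23. Against the LTβR agonist 19 of 22 were higher, against 51.7% of all 5576 genes, with a median of 0.24, and Ifit3 led with 1.08 and 0.87.

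The Ifit1 and Ifit3 promoters are shown because, of the windows searched, they held a pair of interferon-stimulated response elements. The letters searched were GAAA, 2 bases and GAAA on both strands, which 3.44% of promoters held. The Ifit1 window (chr19:34640639-34640938, plus strand) held matches from bases -104 and -85 and the Ifit3 window (chr19:34583279-34583578, plus strand) from bases -156 and -122, in capitals.
Ifit1: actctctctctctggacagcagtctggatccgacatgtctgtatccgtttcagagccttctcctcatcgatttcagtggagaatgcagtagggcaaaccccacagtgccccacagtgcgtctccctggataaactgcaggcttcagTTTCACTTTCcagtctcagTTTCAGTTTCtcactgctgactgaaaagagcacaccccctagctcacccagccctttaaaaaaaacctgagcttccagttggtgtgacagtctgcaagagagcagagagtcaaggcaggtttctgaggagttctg
Ifit3: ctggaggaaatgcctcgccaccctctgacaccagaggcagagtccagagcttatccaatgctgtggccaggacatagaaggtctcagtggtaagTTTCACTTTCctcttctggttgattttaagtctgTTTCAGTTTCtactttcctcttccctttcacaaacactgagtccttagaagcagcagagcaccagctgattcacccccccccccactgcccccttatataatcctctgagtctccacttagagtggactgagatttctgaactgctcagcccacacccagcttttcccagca
The windows of Ifit2, Irf7 and Cmpk2 held no match to this motif. The Cxcl9 window (chr5:92328030-92328329, minus strand) held neither this motif nor a κB motif nor the gamma-activated site, TTC and GAA with 3 bases between, which 8.3% of promoters held.

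Interferon-γ response genes stood mostly below untreated with the LTβR agonist. Of 18 fixed genes, 15, 16 and 15 could be compared, and 9, 14 and 9 of them were below 0, against 61.7, 54.1 and 52.4% of all genes (6, 13 and 8 with TMM factors). The medians were -0.04, -0.31 and -0.21, of which the first turned to 0.12 with TMM factors. Nos2, the inducible nitric oxide synthase, was the only member at least 2-fold higher in any agonist library, at 50.6, 185, 248 and 111 CPM. Its log2 ratios were 1.85 (1.37 to 2.40), 2.28 (1.82 to 2.81) and 1.11 (0.62 to 1.67), and 6.09, 15.0, 14.3 and 9.05% of thinned cells held a UMI, against at most 1.58% of thinned Cd3e-positive cells. Iigp1, an immunity-related GTPase, was at 182, 117, 72.2 and 92.5 CPM, lower by 1.34 (-1.66 to -1.01) with the LTβR agonist. Cxcl10 read 397, 502, 303 and 279 CPM and Gbp2 571, 729, 506 and 609 CPM.

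Antigen presentation genes outside the rule stayed within 2-fold of untreated, as did most genes. None of the 12 class I genes and none of the class II list with enough UMIs (9, 9 and 8 genes of 12) was past 2-fold in any of the 3 comparisons, where 1.22 to 3.15% of all genes were at least 2-fold higher and 0.298 to 0.834% lower. The class II medians were -0.09, -0.06 and -0.15, and the first 2 turned to 0.07 and 0.00 with TMM factors. Cd74, the invariant chain that guards the class II groove, stood at 16627, 15990, 16513 and 16943 CPM. Ciita, the class II transactivator, was the most different with the STING agonist, at 421, 260, 352 and 384 CPM, lower by 0.69 (-0.91 to -0.47). With the LTβR agonist and the combination it was Lgmn, a lysosomal protease, at 571, 538, 363 and 398 CPM, with log2 ratios of -0.65 and -0.52. B2m, the class I light chain, read 5123, 4960, 4725 and 4839 CPM. Cells were required to be class II high, which limits how far class II genes could differ.

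Genes of costimulation and checkpoints, a list that holds activating and inhibitory members, stayed within 2-fold of untreated but for 1 gene with the STING agonist. Of all genes, 3.15, 1.65 and 1.22% were at least 2-fold higher with the STING agonist, the LTβR agonist and the combination. Of 11 compared genes of 14, 6, 8 and 8 were above 0, against 38.3, 45.9 and 47.6% of all genes, with medians of 0.06, 0.18 and 0.26. Cd80 stood at 302, 440, 456 and 472 CPM and Cd86, the second ligand of CD28, at 1094, 1363, 1130 and 1276 CPM. Cd274, which encodes the checkpoint ligand PD-L1, read 391, 575, 488 and 441 CPM. Tnfsf9, which encodes 4-1BB ligand, was past 2-fold with the STING agonist, at 33.3, 88.6, 62.8 and 49.6 CPM, with 44.0% of its untreated UMIs in 1 cell.

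Most Fc receptor and Ms4a family genes were lower with the LTβR agonist, alone or combined. All 8 fixed genes were below 0 against untreated in both libraries, against 54.1 and 52.4% of all genes, with medians of -0.34 and -0.36, whereas 4 of 8 were with the STING agonist (1 of 8 with TMM factors), against 61.7% of all genes. Fcgr2b, at -0.02 with the LTβR agonist, stood above 0 with TMM factors, and the combination was below the STING agonist for all 8 genes, against 39.5% of all genes. Fcgr4, an activating receptor for IgG on monocytes and macrophages, stood at 286, 300, 154 and 145 CPM, lower by 0.89 (-1.13 to -0.64) with the LTβR agonist and 0.98 (-1.25 to -0.71) with the combination. Fcgr3 stood at 663, 660, 525 and 447 CPM and their common signalling chain Fcer1g at 2268, 2265, 1799 and 1877 CPM. The macrophage gene Fcgr1, which encodes the high-affinity receptor, followed at 375, 351, 223 and 232 CPM.

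Of the monocyte genes, Ly6c2 was highest untreated, at 910 CPM, and lowest with the STING agonist, at 442 CPM, by 1.04 (-1.20 to -0.88). Plac8 was lowest with the LTβR agonist, and Clec4e, the Mincle receptor, stood out with the STING agonist at 198, 573, 227 and 219 CPM. The medians of the 14 classical monocyte genes were 0.00, -0.13 and -0.19, and the first became 0.16 with TMM factors. Of the macrophage genes, 6 of 13, 10 of 13 and 9 of 11 were below 0, against 61.7, 54.1 and 52.4% of all genes, with medians of 0.02, -0.37 and -0.15 (4, 8 and 8 genes with TMM factors). Apoe, an apolipoprotein of lipid-laden macrophages, read 1123, 1066, 864 and 607 CPM and the efferocytosis receptor Mertk 74.5, 50.7, 43.8 and 28.4 CPM, lowest with the combination by 1.39 (-1.98 to -0.81). The tetraspanin Cd63 went the other way at 19.96, 92.0, 57.6 and 54.4 CPM, but the log2 ratio of the combination fell from 1.41 to 0.35 when the gate was applied to thinned cells.

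Genes shared with dendritic cells were unevenly placed. Of the 18 genes of conventional dendritic cells 3, 7 and 7 could be compared. Above 0 were 2, 6 and 5, against 38.3, 45.9 and 47.6% of all genes, with medians of 0.32, 0.66 and 0.44. At least 2-fold higher were 0, 2 and 1, against 3.15, 1.65 and 1.22% of all genes. At least 2-fold lower were 1, 0 and 1, against 0.834, 0.346 and 0.298%. Itgax, which encodes CD11c, read 168, 273, 326 and 229 CPM, above untreated in each agonist library. The C-type lectins Mgl2 and Clec10a were low with the STING agonist, at 102, 32.5, 163 and 147 CPM and 69.2, 14.9, 70.7 and 65.3 CPM. Cx3cr1, the fractalkine receptor, stood at 51.9, 36.5, 99.5 and 98.5 CPM. Ccl17, a CCR4 ligand, was 18.6, 2.71, 66.7 and 107 CPM, a log2 ratio of 1.79 with the LTβR agonist and 2.48 with the combination, but it was seen in 3.48, 1.55, 3.89 and 2.84% of cells, and 50, 50, 24.9 and 32.2% of its UMIs lay in 1 cell. When each cell was thinned the LTβR agonist ratio was 0.35, and the UMIs were 8 in 115 untreated cells, 43 in 463 with the LTβR agonist and 45 in 398 with the combination.

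Genes in and outside the lists were also ranked by log2 ratio, leaving out immunoglobulin genes and genes with over 25% of their UMIs in 1 cell, among others. The 10 genes most above untreated with the STING agonist included, outside the lists, Slc7a11, the cystine importer, at 107, 609, 392 and 276 CPM, and Mir155hg, the host transcript of miR-155, at 14.6, 120, 48.9 and 64.1 CPM. The phosphatase gene Dusp5 read 50.6, 283, 137 and 163 CPM and Odc1, the first enzyme of polyamine synthesis, 43.9, 206, 101 and 120 CPM. All 4 were above untreated in each agonist library. With none of the exclusion genes detected the STING agonist ratios of Slc7a11 and Odc1 were 1.94 and 1.15 on the log2 scale and those of the combination 0.90 and 0.83. Among the 10 most below untreated were Txnip, an inhibitor of thioredoxin, at 142, 46.0, 88.0 and 76.2 CPM, Tbxas1, thromboxane synthase, at 330, 123, 233 and 230 CPM, and Trerf1 at 185, 56.1, 148 and 138 CPM.

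With the LTβR agonist the 2 genes ranked furthest above untreated encode growth factors. Lyz1, at a log2 ratio of 3.53, was left out of this ranking, since 1 cell held 35.5% of its UMIs there. Hbegf, an EGF receptor ligand, read 6.65, 16.2, 47.4 and 27.8 CPM and Pdgfb 6.65, 9.47, 43.0 and 23.6 CPM, each highest in that library with log2 ratios of 2.70 (1.57 to 4.48) and 2.56 (1.43 to 4.34). Among the 10 most below untreated stood the interferon response genes Iigp1, Mx1 and Ifit1.

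With the combination, Lyz1, the lysozyme copy of Paneth and some myeloid cells, ranked furthest above untreated, at 6.65, 1.35, 84.5 and 206 CPM, a log2 ratio of 4.81 (3.71 to 6.58) from 11.4% of cells against 3.48% untreated. These shares of cells were taken without thinning and without a background share in Cd3e-positive cells. Lyz1 and Lyz2 are near copies, so the level of Lyz1 is uncertain. Ccnd2, cyclin D2, read 130, 77.1, 106 and 51.99 CPM, lower by 1.33 (-1.76 to -0.89) and by 2.02 with none of the exclusion genes detected, and Kmo, an enzyme of tryptophan breakdown, 79.9, 23.0, 45.0 and 36.3 CPM. Aoah, which inactivates endotoxin, was at 329, 270, 162 and 150 CPM, lower by 1.13 (-1.39 to -0.87), but the log2 ratio was -0.37 with none of the exclusion genes detected. Slpi was left out by the rule on single cells, since 1 cell held 36.0% and 78.1% of its UMIs in the LTβR agonist and combination libraries.

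The direct comparison of the combination with each agonist placed it nearer to the LTβR agonist. Against the STING agonist 50 of 4622 genes (1.08%) were at least 2-fold higher and 57 (1.23%) lower, whereas against the LTβR agonist 8 of 5576 (0.143%) were higher and 34 (0.61%) lower. The lower genes against the STING agonist included Tnf, Il1a, Cxcl2, Ccl3, Clec4e and Fcgr4, and the higher ones Pltp, Mgl2, Clec10a, Cx3cr1 and Ifit3. Against the LTβR agonist Nos2 was lower by 1.16 (-1.41 to -0.92), and the log2 ratio of Il1a was -1.495 (-1.76 to -1.24). Whether the 2 distances differ was not tested, since each group was 1 library.

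Genes of hypoxia and glycolysis were mostly above untreated with the STING agonist, for 10 of 11 compared genes against 38.3% of all genes, with a median of 0.45. Hilpda, which coats lipid droplets under low oxygen, read 67.9, 411, 197 and 170 CPM and Vegfa 218, 571, 349 and 295 CPM. The STING agonist ratio of Hilpda, 2.59 on the log2 scale, was 1.67 with none of the exclusion genes detected. Eno1, an enzyme of glycolysis, was highest with the LTβR agonist, at 483, 475, 638 and 545 CPM. With the LTβR agonist the median was 0.40 and with the combination 0.02, and all 11 were lower with the combination than with the LTβR agonist, against 48.3% of all genes.

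Within the gate, cells with a Cxcl9 UMI differed from those without in the same direction in all 4 libraries for 49 higher (32.2%) and 22 lower (14.5%) of 152 list genes, against 12.8 and 11.3% of 2273 genes, all cells thinned to 2000 UMIs. The share of lower genes was thus near that over all genes. The higher list genes included Cxcl10, another CXCR3 ligand, by 2.15, 1.04, 0.28 and 1.63 on the log2 scale, Ccl5 by 1.66, 2.38, 0.30 and 1.71, Gbp5 by 1.26, 1.03, 0.75 and 1.11 and Cd274 by 0.90, 0.33, 0.22 and 0.86. The lower ones included Ccl2, at -3.33, -2.05, -0.96 and -2.39, Adgre1, which encodes F4/80, at -0.96, -2.43, -0.83 and -1.26, and Apoe, at -1.09, -0.62, -0.60 and -1.98. Il1b did not separate the cells, at -0.34, 0.06, 0.08 and 0.00. Cells of 1 library are not replicates, and the split was made on a measured gene, so it is a description.

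**Figure D5:**
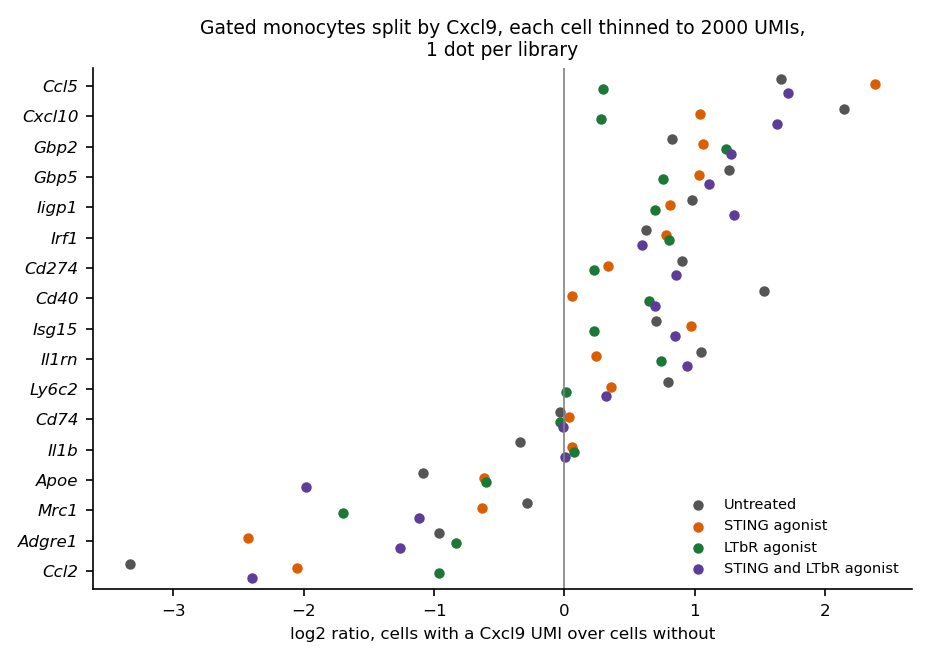
Log2 ratio of thinned levels between gated cells with and without a Cxcl9 UMI for chosen genes; each point is 1 library. Cxcl10, Ccl5, Gbp5 and Cd274 lie above 0 and Ccl2, Adgre1 and Apoe below 0 in all 4 libraries.

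A split of the gated cells by a Ly6c2 UMI gave 44 higher (28.9%) and 12 lower (7.89%) of 152 list genes in all 4 libraries, against 10.4 and 10.3% of 2273 genes, all cells thinned to 2000 UMIs. The share of lower genes was below that over all genes, so the lower genes named are values only. Plac8 was higher in the Ly6c2-positive cells by 0.67, 0.90, 0.64 and 0.60 on the log2 scale. Of the 16 type I interferon genes measured, 9 were higher in all 4 libraries and 7 went different ways, against 10.4% of all genes higher. Ifit2 was higher by 1.06, 0.70, 1.07 and 0.81 and Isg15 by 0.48, 0.34, 0.76 and 0.82, whereas Rsad2 read 1.30, -0.56, 1.76 and 0.93. Mrc1, the mannose receptor of macrophages, was lower, at -2.01, -0.89, -0.38 and -1.29, and so was Cd86, at -0.50, -0.16, -0.25 and -0.38. The class II chaperone Cd74 was close to level, at -0.03, -0.01, -0.11 and -0.06. T cells also express Ly6c2, and a UMI was found in 22.9, 35.9, 42.0 and 35.7% of thinned Cd3e-positive cells, against 57.4, 40.6, 44.9 and 46.2% of the gated cells.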

How the data were processed

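The 4 single-cell RNA libraries were 1 per group, so p-values and SDs are not given. Per the labels a GEM-X 5′ v3 kit was used, but the study's methods give a previous version. The authors deposited raw UMI counts per gene and cell for 33696 features; the file headers give Cell Ranger 8.0.1, the submitters' processing notes 7.1.0 with mm10. No column of other samples was found.

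The study's limits were applied (300 to 5000 genes, at most 6% mitochondrial UMIs), then the gate of the report; 1 of its limits and some genes are not reported here. Doublets were not removed: the automatic threshold of Scrublet in scanpy 1.11.5 marked 0, 0, 1 and 0 cells, and removal of the highest scores (0.4% per 1000 cells) was an alternative. UMIs were summed over the gated cells of a library and given as CPM with exact Poisson intervals. Log2 ratios had 0.5 UMI added and exact binomial intervals, for genes with at least 100 UMIs over both libraries. Shares carry Clopper-Pearson intervals and their ratios log-normal intervals, all for 95% and counting error only. Thinning drew 2000 UMIs per cell with seed 1 and left out 0, 7, 26 and 59 shallower gated cells. The floor for a count of 0 was 3 UMIs.

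Genes were named from the 10 largest differences in each direction per comparison with untreated. Left out were rule, immunoglobulin, T cell receptor, mitochondrial, ribosomal, haemoglobin, sex-linked and predicted genes, other-cell markers and genes with over 25% of UMIs in 1 cell. Likeness to other gates took the 10 genes with the highest ratio in the library where that ratio was smallest. Members of 27 gene lists were named by role. The members and lists were chosen with earlier results of these data known.

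Alternatives were TMM factors (edgeR 4.0.16), a minimum of 20 UMIs, 5 UMIs added, thinning of cells before or after gating, other limits in the gate, other denominators, doublet removal, and leaving out the top cell of each gene. Ratios and intervals were checked on simulated counts. Promoters are from RefSeq for GRCm38.p6, which held no entry for Ly6i, Mx1 and Nos2. Python 3.11.15, numpy 2.4.6, scipy 1.17.1 and pandas 2.3.3 were used.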

Additional observations from a re-analysis of the deposited data

How the results depend on the processing

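No paired analysis was possible because each group was 1 library, and for the same reason no replicate could be left out. The ratio of shares moved as follows. With none of the exclusion genes detected, it was 0.658 (0.456 to 0.948) for the STING agonist against untreated and 3.36 for the combination against the STING agonist. Among cells without a Cxcr2 UMI these were 1.16 and 1.73. With the gate applied to thinned cells, the combination gave 2.68 against untreated, 2.81 against the STING agonist and 1.18 against the LTβR agonist, the last reversed from 0.836. Among cells with at least 2000 UMIs and no thinning, an alternative chosen after seeing the data, the combination gave 2.48 against untreated and 1.05 against the LTβR agonist.

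The counts of genes at least 2-fold higher and lower than untreated moved most with the UMI minimum. At 20 UMIs they were 235 and 264 for the STING agonist, 230 and 126 for the LTβR agonist and 192 and 111 for the combination. TMM factors lowered the lower counts to 9, 9 and 7. For the STING agonist thinning gave 56 and 12, and no exclusion genes gave 46 and 13. For the LTβR agonist the lower count was 6 with thinning, 6 without the top cell, 3 with the gate applied to thinned cells and 11 without cells over 10% immunoglobulin, an alternative chosen after seeing the data. For the combination it was 7 with thinning, 7 without the top cell, 5 with the gate applied to thinned cells and 7 with no upper limit on genes. The number of genes with enough UMIs to be compared also changed with the UMI minimum, thinning and the gate. These counts are therefore not shares of a fixed number of genes. The cause of the moves was not tested.

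Of the log2 ratios of named genes under all alternatives, 678 kept within the counting interval, 41 left it and 1 reversed, that of Apoc2 with the combination (0.22, no exclusion genes). Of the list medians 181 kept and 5 moved. The 115 untreated cells, which enter each comparison with untreated, set the depth limit.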

Other observations

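Of 14 compared stress genes, 10 were above untreated with the STING agonist, against 38.3% of all genes, with a median of 0.52. At least 2-fold higher were 4 of the 14, against 3.15% of all genes. With the LTβR agonist 10 of 13 were above untreated, against 45.9% of all genes, with a median of 0.29. With the combination 9 of 12 were, against 47.6%, with a median of 0.18. In these comparisons 0 were at least 2-fold higher, against 1.65 and 1.22% of all genes. Mt1, a metallothionein, read 268, 549, 366 and 430 CPM, while 66% of the Hspa1a UMIs lay in 1 cell of the STING agonist library. Proliferation genes were too sparse to compare, with 2 of 14 past the minimum. Mki67 was detected in 10.4, 10.3, 7.57 and 8.1% of cells, without thinning and without a background share in Cd3e-positive cells.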
